A study of Homo sapiens with 12 samples.

Results

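The 37 genes of the human mitochondrial genome were followed in HK2 cells, an established cell line from human kidney proximal tubule, with and without knockdown of FLCN, the gene for folliculin. All genes of the raw count table whose GENCODE symbol starts with MT- were taken, which gave 37 of 58288 gene IDs: 13 mRNAs, 2 rRNAs and 22 tRNAs. Cells carried a control shRNA (shControl, called nontarget here) or shRNA FLCN, and were harvested at fewer than 30 passages (short-term) or after 120 passages (long-term), each group with 3 libraries labelled as biological replicates. The passage number given for long-term cells differs between the labels, which were followed, and the methods of the study. All 4 groups were stably transduced HK2 cells grown in the same medium, and the sources used here do not name the clone behind each library, so an effect of the shRNA and a difference between clones cannot be told apart. Whether the replicates were separate cultures over the whole time is not stated either, so p-values measure the spread between these libraries.

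Mitochondrial DNA is a small circle that is transcribed from both strands into long precursors. The tRNAs lie between most of the mRNAs and rRNAs, and their excision releases the neighbouring RNAs, which is known as the tRNA punctuation model. The 13 mRNAs encode subunits of the respiratory chain and the ATP synthase: 7 belong to complex I (the MT-ND genes), 1 to complex III (MT-CYB), 3 to complex IV (MT-CO1, MT-CO2 and MT-CO3) and 2 to complex V (MT-ATP6 and MT-ATP8). MT-RNR1 and MT-RNR2 are the RNAs of the small and the large subunit of the mitochondrial ribosome, and the tRNAs serve translation inside the organelle. FLCN is a tumour suppressor that acts in lysosomal and nutrient signalling, and its loss is known to raise mitochondrial biogenesis in several tissues.

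Poly(A) tails decide how well such RNAs are caught by a library made from poly(A) RNA. Most mitochondrial mRNAs carry a short tail, and for some of them the tail completes the stop codon. In the annotated transcripts of GENCODE 29 (build GRCh38), 6 of the 13 mRNAs ended in an incomplete stop codon and 7 in a complete one. The last 18 bases of the 6 incomplete mRNAs, followed by MT-ND6 as the only mRNA on the other strand, are given 5′ to 3′ to show this, with the letters of the stop codon in capitals. They end at the last base of chrM:4245-4262, chrM:5494-5511, chrM:9973-9990, chrM:10387-10404, chrM:12120-12137 and chrM:15870-15887 on the + strand, and MT-ND6 lies at chrM:14149-14166 on the - strand.
MT-ND1 end: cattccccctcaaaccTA
MT-ND2 end: ttatactaataatcttaT
MT-CO3 end: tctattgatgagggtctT
MT-ND3 end: gattagactgaaccgaaT
MT-ND4 end: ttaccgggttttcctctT
MT-CYB end: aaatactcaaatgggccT
MT-ND6 end: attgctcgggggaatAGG

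The 5 tRNAs with most counts are shown next, since the results on tRNAs rest largely on them. All 5 lie on the - strand of the reference, and the capitals mark the anticodon, in DNA letters from GENCODE 29: MT-TC (cysteine, chrM:5761-5826), MT-TN (asparagine, chrM:5657-5729), MT-TY (tyrosine, chrM:5826-5891), MT-TP (proline, chrM:15956-16023) and MT-TS1 (serine, chrM:7446-7514). MT-TC and MT-TY share the base at position 5826.
MT-TC: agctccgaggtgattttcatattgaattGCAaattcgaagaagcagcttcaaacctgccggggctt
MT-TN: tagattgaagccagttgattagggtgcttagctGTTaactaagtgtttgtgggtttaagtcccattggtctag
MT-TY: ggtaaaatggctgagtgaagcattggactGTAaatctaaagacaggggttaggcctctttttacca
MT-TP: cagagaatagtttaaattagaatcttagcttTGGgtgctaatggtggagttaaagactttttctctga
MT-TS1: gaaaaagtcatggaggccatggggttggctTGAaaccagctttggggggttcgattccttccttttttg

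Some neighbouring mRNA genes overlap, so that their counts come partly from the same bases. MT-ATP8 and MT-ATP6 share 46 bases, in capitals within chrM:8517-8582 of the + strand, and MT-ND4L and MT-ND4 share 7 bases, in capitals within chrM:10750-10776. Both of these pairs are carried on 1 RNA in the cell. MT-ATP6 and MT-CO3 share 1 base, at position 9207.
MT-ATP8/MT-ATP6: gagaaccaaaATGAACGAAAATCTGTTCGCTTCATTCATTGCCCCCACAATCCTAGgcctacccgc
MT-ND4L/MT-ND4: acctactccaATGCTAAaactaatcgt

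The libraries held 5825779 to 8991051 counts each. FLCN itself, the targeted gene, was at 12.7 to 16.7 CPM (counts scaled to a common library size) in short-term nontarget, 5.65 to 6.57 in short-term knockdown, 9.89 to 12.1 in long-term nontarget and 6.30 to 7.95 in long-term knockdown libraries. Its log2 fold change was -1.33 ± 0.18 (SE) in short-term and -0.70 ± 0.18 in long-term cells (adjusted p = 0.00011 and 0.0061, edgeR). Of 5 epithelial markers, KRT8, KRT18, KRT19 and EPCAM were present in every library and CDH1 reached at most 0.904 CPM. Of the 2 kidney lineage markers, PAX8 was present in every library, whereas PAX2 had 19 counts in 4 libraries (at most 1.70 CPM). LRP2, SLC22A6 and HNF4A of the proximal tubule had 0 counts, and 2 of 10 tubule markers (SLC5A2 and GGT1) passed the filter on low counts. PTPRC of immune cells had 0 counts, and PECAM1 and CDH5 of endothelium reached at most 0.546 CPM. Several markers moved with the groups. In short-term knockdown PAX8 (log2 fold change 0.33 ± 0.10, adjusted p = 0.049, edgeR) and GGT1 (0.51 ± 0.16, adjusted p = 0.048) were higher. In long-term knockdown PAX8 (log2 fold change -0.61 ± 0.10, adjusted p = 0.00020, edgeR), EPCAM (-0.59 ± 0.19, adjusted p = 0.024) and the mesenchymal PDGFRB (-3.56 ± 0.45, adjusted p = 1.0e-05, at most 9.29 CPM) were lower and GGT1 was higher (0.85 ± 0.16, adjusted p = 0.00060). The other mesenchymal marker, COL1A1, was at 13.4 to 37.1 CPM. It was called in no comparison (-0.06 ± 0.24 in long-term knockdown, adjusted p = 0.88, edgeR). In long culture of nontarget cells KRT19 was lower (-2.70 ± 0.22, adjusted p = 4.7e-07, edgeR), and PAX8 (0.63 ± 0.10) and KRT18 (0.44 ± 0.12) were higher. In long culture of knockdown cells KRT19 (-2.99 ± 0.22, adjusted p = 3.1e-08, edgeR), EPCAM (-1.31 ± 0.18), PDGFRB (-1.74 ± 0.55) and PAX8 (-0.31 ± 0.10) were lower. Their part in the results was not tested. In RNA from a whole culture, a change in the mix of cells and a change of RNA per cell cannot be told apart.

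The mitochondrial mRNAs held 2.54% to 4.65% of all counts. In short-term cells the share was 4.07%, 3.90% and 3.89% in nontarget and 3.74%, 3.24% and 3.38% in knockdown libraries (replicates 1, 2 and 3). In long-term cells it was 3.13%, 2.54% and 2.54% in nontarget and 4.65%, 3.61% and 3.22% in knockdown libraries. Thus the knockdown libraries lay below nontarget ones in short-term cells and above them in long-term cells, with no overlap in either case, but the 3 long-term knockdown libraries spread over most of the range and the margin to the highest nontarget library was small. Replicate 1 had the highest total mitochondrial share in each of the 4 groups, up to 5.60% in long-term knockdown replicate 1.

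The rRNAs followed another pattern. They took 0.388%, 0.380% and 0.391% of counts in short-term nontarget, 0.788%, 0.710% and 0.834% in short-term knockdown, 0.212%, 0.186% and 0.173% in long-term nontarget and 0.936%, 0.679% and 0.554% in long-term knockdown libraries. Every knockdown library was therefore above every nontarget library at both times, and the ratio of the group means was 2.01 in short-term and 3.80 in long-term cells. The tRNAs were a very small part, at 0.00548% to 0.0168% of counts, and were also higher in all knockdown libraries than in all nontarget libraries of the same time.

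Levels per gene length differed widely among the mRNAs. On the scale of CPM per kilobase of transcript, MT-CO2 was the highest mRNA in all 4 groups (8860 ± 458 in short-term nontarget, SD, n = 3), and MT-CO1 (6723 ± 131) and MT-CO3 (5932 ± 223) came next there. MT-ND5 (843 ± 53.0) and MT-ND6 (723 ± 52.8) were the lowest mRNAs in each group, and their values came within their SDs of each other in long-term knockdown cells (735 ± 174 and 582 ± 124). Between these ends, MT-ND2 and MT-ND3 (1838 ± 98.9 and 1796 ± 42.9) did not differ beyond their spread in short-term nontarget cells. MT-RNR1 (510 ± 23.9) lay below every mRNA and MT-RNR2 (2129 ± 38.4) above 6 of them in short-term nontarget cells, although the rRNAs are known to be the more abundant class in the cell, so these libraries, made from poly(A) RNA, do not give the amount of rRNA.

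Some counts can belong to copies in the nuclear genome. Of all exact windows of 75 bases, 36.6% in MT-CO1, 34.4% in MT-ND2, 28.01% in MT-ATP6, 16.3% in MT-ND1, 14.6% in MT-CO3, 10.5% in MT-CO2, 7.10% in MT-ND6, 3.16% in MT-RNR2 and 0.173% in MT-ND5 also occurred in a nuclear transcript of GENCODE 29, and none in the other 5 mRNAs or MT-RNR1. The tRNAs tested are shorter than the window and could not be read in this way. The table holds 407 nuclear pseudogenes of mitochondrial genes, of which 26 had a count, and together they had 0.944% as many counts as the 37 genes. Most of these were of MTATP6P1, at chr1:633696-634376, with 10.9 counts per 100 of MT-ATP6. How reads that map to several places were counted is not given in the sources used here, so the values of the genes with shared windows are uncertain to this extent.

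In short-term cells, counts of the large-subunit rRNA and several tRNAs were higher in knockdown libraries, and no mitochondrial mRNA passed the test. This comparison asks what FLCN loss does within a limited time in culture. The test covered 21 genes (13 mRNAs, 2 rRNAs and 6 tRNAs), the others having too few counts. With calls made at an adjusted p under 0.05, 5 were higher and 0 lower by edgeR's quasi-likelihood test, beside 5.62% higher and 4.71% lower of all 13959 genes tested. At an unadjusted p below 0.05, 7 were higher and 2 lower, and DESeq2 called 5 higher and 0 lower.

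MT-RNR2 had 3352, 3251 and 3357 CPM in short-term nontarget and 7500, 6603 and 7776 CPM in short-term knockdown libraries. The lowest knockdown library was well above the highest nontarget library. The log2 fold change was 1.14 ± 0.15 (SE, adjusted p = 0.00014, edgeR), and it kept its call without any 1 of the 6 libraries, with log2 fold changes of 1.09 to 1.20. MT-RNR1 was at 502, 460 and 497 CPM in nontarget and 604, 543 and 802 CPM in knockdown libraries. These groups did not overlap either, with knockdown replicate 3 above its mates, and the log2 fold change of 0.42 ± 0.15 did not pass (adjusted p = 0.10, edgeR). At about the same fold it passed in a fit of the 2 groups alone (adjusted p = 0.048, edgeR) and without the filter on low counts (adjusted p = 0.0051). In counts, 1 count of MT-RNR1 was matched by 6.68 to 7.06 counts of MT-RNR2 in nontarget and by 9.70 to 12.4 in knockdown libraries.

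The tRNAs called were MT-TF, MT-TY, MT-TN and MT-TC, for phenylalanine, tyrosine, asparagine and cysteine. MT-TY was at 11.05, 10.6 and 11.4 CPM in nontarget and 23.7, 20.9 and 19.1 CPM in knockdown libraries (log2 fold change 0.95 ± 0.17, adjusted p = 0.0016, edgeR). MT-TN was at 9.27, 12.1 and 10.0 CPM and 18.1, 16.9 and 19.2 CPM (0.79 ± 0.19, adjusted p = 0.011). Both were higher in every knockdown library, by more than the spread of the replicates. MT-TC was at 11.7, 11.97 and 11.1 CPM and 20.2, 13.9 and 19.4 CPM (0.62 ± 0.17, adjusted p = 0.028, edgeR). MT-TF had the largest log2 fold change (2.00 ± 0.34, adjusted p = 0.0010) but few counts, with 0.682, 1.36 and 1.72 CPM in nontarget and 4.29, 6.57 and 4.06 CPM in knockdown libraries. MT-TF lies directly before MT-RNR1 on the same strand. The call of MT-TN was lost without nontarget replicate 1 (0.70, adjusted p = 0.072, edgeR). That of MT-TC was lost without any 1 of the nontarget libraries or without knockdown replicate 1 or 3 (0.51 to 0.64, adjusted p of 0.075 to 0.14, edgeR). Without nontarget replicate 1, 3 of the 21 genes were called higher, beside 3.32% of all genes. MT-TS1 (0.29 ± 0.15) and MT-TP (-0.03 ± 0.16) were not called.

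Among the mRNAs, 0 of 13 were called in either direction by edgeR or DESeq2, and at an unadjusted p below 0.05 edgeR gave 1 higher and 2 lower. Their median log2 fold change was -0.16, against 0.00 over all genes tested, with 3 above 0 and 10 below. MT-CO2 had 6397, 6006 and 5778 CPM in nontarget and 5469, 4195 and 4045 CPM in knockdown libraries. All knockdown libraries were lower, but the log2 fold change of -0.41 ± 0.15 did not pass (adjusted p = 0.096, edgeR); without knockdown replicate 1 it was -0.56 and did (adjusted p = 0.038). MT-CO2 was also called lower without TMM factors (-0.46, adjusted p = 0.045, edgeR), in a fit of the 2 groups alone (-0.40, adjusted p = 0.045) and without the filter on low counts (-0.41, adjusted p = 0.0034), where MT-ATP6 was lower too (-0.33, adjusted p = 0.036). MT-ND1, for a core subunit of complex I, pointed upward at 1597, 1432 and 2322 CPM against 1471, 1236 and 1244 CPM, with 1 nontarget library above a knockdown library (0.44 ± 0.16, adjusted p = 0.098, edgeR). It was called without knockdown replicate 2 (0.57, adjusted p = 0.034, edgeR) or without the filter (0.43, adjusted p = 0.0020). MT-ND1, MT-CYB and MT-RNR1 were all high in knockdown replicate 3, the library in which RN7SL2, a cytosolic RNA, had 143 counts against 7 to 34 in the other 11 libraries. Without that library their log2 fold changes were 0.20, -0.41 and 0.24, none of them called, and MT-RNR2 was called as before.

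MT-ND6 is encoded on the opposite strand from the other 12 mRNAs and was therefore set against them. It had 0.950, 1.08 and 0.926 counts per 100 counts of the other 12 in short-term nontarget and 1.22, 1.42 and 1.22 in short-term knockdown libraries, with no overlap. In long-term cells the ratio was lower, at 0.654, 0.728 and 0.750 in nontarget and 0.770, 0.871 and 0.732 in knockdown libraries, and these groups overlapped. The library kit does not mark strand, so reads of MT-ND6 and of the precursor of the opposite strand cannot be told apart.

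**Figure D1:**
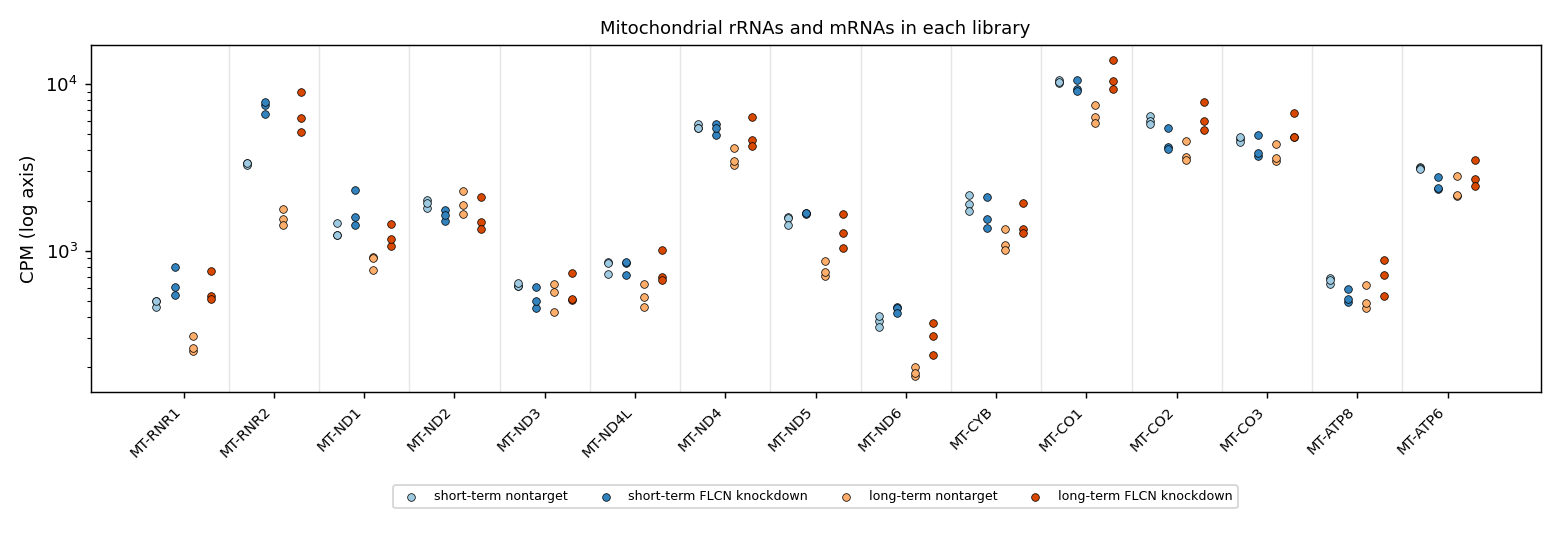
CPM (log axis) of the 2 rRNAs and 13 mRNAs in each of the 12 libraries, with the 4 groups in colours and 3 points per group. MT-RNR2 is high in both knockdown groups, and for MT-RNR1, MT-RNR2, MT-ND1, MT-ND4L, MT-ND4, MT-ND5, MT-ND6 and MT-CO1 the 3 long-term nontarget libraries lie below all others.

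Long-term knockdown was accompanied by higher levels of most of the genes relative to long-term nontarget cells. This comparison addresses prolonged FLCN loss. Of the 21 genes tested, 16 were higher and 0 lower, beside 13.7% higher and 15.8% lower of all genes. At an unadjusted p below 0.05 edgeR gave 18 higher and 0 lower, and DESeq2 called 16 higher and 0 lower. The rRNAs were both higher, as were 9 of 13 mRNAs and 5 of 6 tRNAs. Same-numbered libraries deviated together in this comparison, though the labels do not say that a number marks a pair. With the replicate number as a block 18 were higher and 1 lower, beside 17.4% and 19.4% of all genes. MT-CYB (0.40 ± 0.14, adjusted p = 0.040, edgeR) and MT-ATP6 (0.28 ± 0.08, adjusted p = 0.0093) were then also higher, and MT-ND2 was lower (-0.25 ± 0.09, adjusted p = 0.035).

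MT-RNR2 was at 1780, 1545 and 1431 CPM in long-term nontarget and 8946, 6204 and 5140 CPM in long-term knockdown libraries. The groups were far apart, with a log2 fold change of 2.09 ± 0.16 (adjusted p = 4.4e-08, edgeR). MT-RNR1 was at 309, 252 and 261 CPM in nontarget and 759, 535 and 515 CPM in knockdown libraries (1.14 ± 0.15, adjusted p = 3.0e-05, edgeR). Both stayed called without any 1 library, with ranges of 1.84 to 2.26 and 0.94 to 1.24. Set against the mRNAs of the same library, MT-RNR2 had 5.77, 6.30 and 5.75 counts per 100 mRNA counts in nontarget and 18.6, 17.3 and 15.6 in knockdown libraries, which may be compared with 8.30 to 8.77 and 19.5 to 22.4 in short-term cells.

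Among the tRNAs, MT-TN had 4.28, 2.47 and 4.002 CPM in nontarget and 16.9, 11.4 and 16.1 CPM in knockdown libraries. MT-TC had 4.28, 4.02 and 4.13 CPM and 17.2, 12.6 and 16.2 CPM. MT-TY had 4.68, 3.09 and 3.61 CPM and 13.6, 9.08 and 11.8 CPM. These neighbouring genes for asparagine, cysteine and tyrosine lie within a cluster of tRNA genes between MT-ND2 and MT-CO1, and in each of them every knockdown library was above every nontarget library. Their log2 fold changes were 2.03 ± 0.22, 1.89 ± 0.20 and 1.60 ± 0.21 (adjusted p = 1.7e-06, 1.2e-06 and 1.4e-05, edgeR). MT-TP had 27.0, 19.5 and 16.9 CPM in nontarget and 72.3, 61.9 and 54.5 CPM in knockdown libraries, again far apart (1.58 ± 0.16, adjusted p = 1.3e-06, edgeR). MT-TS1 had 27.4, 19.5 and 23.9 CPM against 47.7, 34.4 and 33.2 CPM (0.71 ± 0.15, adjusted p = 0.0019, edgeR), and MT-TF was not called (0.67 ± 0.40, adjusted p = 0.24).

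**Figure D2:**
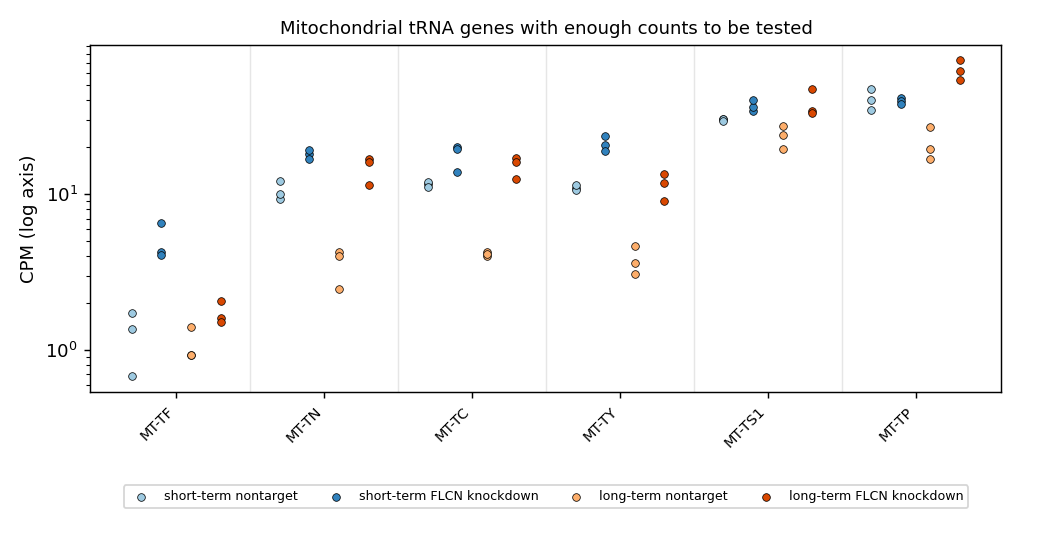
CPM (log axis) of the 6 mitochondrial tRNA genes with enough counts to be tested, in each of the 12 libraries, with the 4 groups in colours and 3 points per group. MT-TN, MT-TC, MT-TY and MT-TP are lowest in the 3 long-term nontarget libraries, and MT-TF is highest in the 3 short-term knockdown libraries.

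The mRNAs called in long-term knockdown encode parts of 3 complexes. In complex IV all 3 of 3 were higher, in complex I 5 of 7 (MT-ND1, MT-ND4, MT-ND4L, MT-ND5 and MT-ND6), in complex V 1 of 2 (MT-ATP8) and in complex III 0 of 1. Over the 13 mRNAs the median log2 fold change was 0.51, a fold of 1.43, against 0.00 over all genes tested. This is smaller than the values of MT-RNR2 and of most tRNAs.

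MT-CO1, the catalytic subunit of cytochrome c oxidase, was at 7509, 6330 and 5849 CPM in nontarget and 13822, 10400 and 9349 CPM in knockdown libraries (0.77 ± 0.13, adjusted p = 0.00027, edgeR). MT-CO2 was at 4566, 3650 and 3503 CPM and 7812, 5954 and 5276 CPM (0.70 ± 0.15, adjusted p = 0.0016). MT-CO3 was at 4346, 3428 and 3584 CPM and 6680, 4778 and 4802 CPM (0.52 ± 0.14, adjusted p = 0.0094, edgeR). No library of one group reached into the other for any of these 3 genes. Their joint share of the mRNA counts was 58.7%, 58.9% and 59.0% in long-term knockdown libraries, above all of the other 9 libraries (48.8% to 54.7%).

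MT-ND5 had 867, 705 and 751 CPM in nontarget and 1668, 1283 and 1045 CPM in knockdown libraries (0.78 ± 0.13, adjusted p = 0.00025, edgeR). MT-ND6 had 200, 177 and 185 CPM and 369, 310 and 239 CPM (0.71 ± 0.13, adjusted p = 0.00035). Both groups were apart. In contrast, MT-ND2 had 2270, 1666 and 1892 CPM in nontarget and 2090, 1492 and 1350 CPM in knockdown libraries, so that the groups overlapped and its log2 fold change was -0.24 ± 0.14 (adjusted p = 0.23, edgeR). MT-ND3 (0.12 ± 0.15), MT-ATP6 (0.29 ± 0.13) and MT-CYB (0.41 ± 0.17) were the other mRNAs that were not called. MT-ND2 took 6.79% to 7.61% of the mRNA counts in long-term nontarget libraries and 4.10% to 5.04% in the other 9.

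Of the 16 calls, 11 were kept without any 1 of the 6 libraries. MT-ND1, MT-ND4, MT-ND4L and MT-CO3 lost theirs without long-term nontarget replicate 2 (log2 fold changes of 0.40 to 0.44) or without knockdown replicate 1 (0.29 to 0.38), and MT-ATP8 without any but nontarget replicate 1 and knockdown replicate 3 (0.26 to 0.43) or without TMM factors (0.39, adjusted p = 0.057, edgeR) or in a fit of the 2 groups alone (0.44, adjusted p = 0.079). Without knockdown replicate 1, MT-ND2 was called lower (-0.45, adjusted p = 0.016, edgeR). MT-CYB was called higher without knockdown replicate 3 (0.52, adjusted p = 0.040, edgeR), and MT-ATP6 without that library (0.39, adjusted p = 0.034) or without nontarget replicate 1 (0.41, adjusted p = 0.035). Both were also called without the filter on low counts (0.41 and 0.29).

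These changes are relative to all genes. When the 13 mRNAs themselves set the library sizes, an alternative chosen after the data were seen that moved the median of all genes by -0.53, 6 of the 16 calls were left: MT-RNR2 (1.53 ± 0.14), MT-RNR1 (0.59 ± 0.16), MT-TN (1.51 ± 0.26), MT-TC (1.35 ± 0.24), MT-TY (1.06 ± 0.24) and MT-TP (1.05 ± 0.18). Hence both rRNAs and 4 tRNAs rose beyond the mRNAs, and MT-ND2 (-0.79 ± 0.14) and MT-ND3 (-0.42 ± 0.15) fell behind them. On the same scale in short-term cells, MT-RNR2 (1.28 ± 0.14), MT-TF, MT-TY, MT-TN and MT-TC were called as before, and MT-RNR1 (0.56 ± 0.16, adjusted p = 0.035, edgeR) and MT-ND1 (0.59 ± 0.17, adjusted p = 0.046) passed as well. Of all genes, 3.74% were higher and 1.17% lower in that short-term fit.

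Most of these genes had lower counts in long-term than in short-term nontarget libraries. This comparison of long-term with short-term nontarget libraries asks what culture time does without knockdown, and it shares the long-term nontarget libraries with the comparison of long-term knockdown, so the opposite signs in the 2 are not independent. Of 21 genes tested, 0 were higher and 14 lower, beside 3.17% higher and 4.38% lower of all genes. At an unadjusted p below 0.05 edgeR gave 0 higher and 18 lower, and DESeq2 called 0 higher and 14 lower. The genes called were 8 mRNAs, both rRNAs and 4 tRNAs.

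MT-ND6 fell most among the mRNAs (-1.02 ± 0.13, adjusted p = 5.9e-05, edgeR), from 380, 407 and 351 CPM to 200, 177 and 185 CPM. MT-ND5 was next (-0.98 ± 0.13, adjusted p = 0.00015), from 1591, 1576 and 1418 CPM to 867, 705 and 751 CPM. In both, the long-term libraries lay far below the short-term libraries. MT-CYB (-0.75 ± 0.17), MT-CO1 (-0.66 ± 0.13), MT-CO2 (-0.63 ± 0.15), MT-ND1 (-0.61 ± 0.16), MT-ND4 (-0.61 ± 0.13) and MT-ND4L (-0.58 ± 0.15) also passed. MT-ND2 was at 0.02 ± 0.14, and its CPM overlapped between the groups.

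MT-RNR2 fell by 1.07 ± 0.15 and MT-RNR1 by 0.83 ± 0.15 on the log2 scale (adjusted p = 0.00029 and 0.0026, edgeR). MT-TY, MT-TN and MT-TC fell by 1.53 ± 0.21, 1.52 ± 0.23 and 1.48 ± 0.20 (adjusted p = 0.00014, 0.00032 and 0.00014, edgeR), and MT-TP by 0.95 ± 0.17 (adjusted p = 0.0014). Of the 14 calls, 9 were kept without any 1 of the 6 libraries. MT-CO2, MT-CYB, MT-ND1, MT-ND4 and MT-ND4L were lost without long-term nontarget replicate 2, at log2 fold changes of -0.72 to -0.48. This left 9 genes lower, beside 2.77% of all genes. All but MT-ND4 were also lost without long-term nontarget replicate 3 (-0.68 to -0.57) or short-term nontarget replicate 1 (-0.66 to -0.53), MT-ND1 without short-term nontarget replicate 2 (-0.66) or long-term nontarget replicate 1 (-0.66), and MT-ND4L without short-term nontarget replicate 3 (-0.55). MT-ATP6 was called lower without long-term nontarget replicate 1 (-0.55, adjusted p = 0.025, edgeR), in a fit of the 2 groups alone (-0.42, adjusted p = 0.014) and without the filter on low counts (-0.41, adjusted p = 0.0047), where MT-ATP8 was lower too (-0.34, adjusted p = 0.040).

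Of the 21 genes tested, about the same share was called in long culture of knockdown cells as over all genes. Long-term against short-term knockdown libraries gave 2 higher (MT-CO2 and MT-TP) and 4 lower (MT-TF, MT-TY, MT-ND6 and MT-ND1), beside 11.5% higher and 15.2% lower of all genes. Unadjusted p-values below 0.05 were given by edgeR to 4 higher and 5 lower, and DESeq2 called 3 higher, with MT-CO3 added (adjusted p = 0.048), and 4 lower. In a fit of these 2 groups alone MT-CO2 (adjusted p = 0.076, edgeR) and MT-ND1 (adjusted p = 0.058) were lost. Same-numbered libraries deviated together here too. With the number as a block 4 were higher, with MT-CO3 (0.38 ± 0.08) and MT-ATP8 (0.40 ± 0.10) added, beside 15.8% of all genes. Another 5 were lower, with MT-ND5 (-0.35 ± 0.10) added, beside 18.6%. MT-TP went from 41.8, 39.8 and 38.0 CPM to 72.3, 61.9 and 54.5 CPM (0.66 ± 0.16, adjusted p = 0.0045, edgeR), with no overlap. MT-ND6 went from 463, 457 and 421 CPM to 369, 310 and 239 CPM (-0.55 ± 0.12, adjusted p = 0.0033, edgeR), likewise apart. MT-TY (-0.88 ± 0.17) and MT-TF (-1.49 ± 0.32) were also lower in every long-term library.

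MT-RNR2 and MT-RNR1 each had a log2 fold change of -0.11 ± 0.15 over this time, and their groups overlapped. Leaving out 1 library gave 1 to 4 genes higher and 3 to 6 lower, beside 7.84% to 11.4% and 12% to 15.8% of all genes. MT-CO2 (0.47 ± 0.15) was lost without short-term knockdown replicate 2 or 3 or long-term knockdown replicate 1 (0.30 to 0.42), and MT-ND1 (-0.54 ± 0.16) without short-term knockdown replicate 3 (-0.30) or long-term knockdown replicate 2 (-0.46). MT-CO3 was gained without short-term knockdown replicate 1 (0.52) or long-term knockdown replicate 2 or 3 (0.45 and 0.46), and MT-ATP8 without long-term knockdown replicate 3 (0.58). Without long-term knockdown replicate 1, MT-ND5 (-0.53) and MT-RNR2 (-0.36, adjusted p = 0.047, edgeR) were called lower. MT-CO3 and MT-ATP8 were also called higher without TMM factors (0.39 and 0.42) or without the filter on low counts (0.39 and 0.42), and in the latter MT-ND5 was called lower (-0.32).

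Whether knockdown acted differently in long-term than in short-term cells was tested as an interaction, the long-term minus the short-term log2 fold change. It was positive for 11 genes and negative for 0, beside 4.98% positive and 8.43% negative of all genes. At an unadjusted p below 0.05 edgeR gave 16 positive and 1 negative, and DESeq2 called 11 and 0. It was largest for MT-TP (1.61 ± 0.23, adjusted p = 9.3e-05, edgeR), MT-TC (1.27 ± 0.26), MT-TN (1.24 ± 0.29), MT-CO2 (1.11 ± 0.21), MT-RNR2 (0.96 ± 0.22) and MT-CO1 (0.88 ± 0.19), and these 6 were called without any 1 of the 12 libraries. MT-ATP8, MT-RNR1, MT-CO3, MT-ND5 and MT-ATP6 passed with all libraries (0.61 to 0.76) but each lost its call in 7 or 8 of 12 fits that left out 1 library. The count of positive genes was 6 or 7 without short-term nontarget replicate 1 or 3, short-term knockdown replicate 2, long-term nontarget replicate 2 or 3 or long-term knockdown replicate 1. In these fits 3.54% to 4.32% of all genes were positive. MT-CYB (0.63), MT-ND4L (0.56), MT-ND4 (0.53) and MT-ND6 (0.48) were also called without the filter on low counts. With the replicate number as a block, these and MT-ND3 (0.39, adjusted p = 0.047, edgeR) were called, beside 8.6% positive and 12% negative of all genes. For MT-TF (-1.33 ± 0.55, adjusted p = 0.12) the difference did not pass.

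Counts of the tRNAs came almost entirely from 1 strand of the annotation. The 8 tRNA genes on the - strand had 9367 of 9771 tRNA counts (95.9%), and the 14 on the + strand had 404. Of the 6 tested, MT-TF is on the + strand. MT-TG, MT-TH, MT-TL2 and MT-TS2, all on the + strand, had 0 counts in all 12 libraries, where 3 counts would be 0.0357 CPM of the pooled total. The other 12 that were not tested had 2 to 77 counts over all libraries. The tRNAs are 59 to 75 bases long. The library kit does not mark strand, so a read from a - strand tRNA and one from the precursor of the opposite strand that runs across it cannot be told apart, and how reads that touch 2 genes were counted is not given in the sources used here.

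Nuclear RNAs without a poly(A) tail were listed beside the rRNAs and tRNAs. RN7SK, RN7SL1, RMRP, RPPH1 and TERC had 0 counts in every library, RN7SL3 had 10 counts in all and RN7SL2 had 302, with 7 to 143 in each library. The replication-dependent histone genes, whose mRNAs have no tail, together took 0.0140%, 0.0136% and 0.0125% of counts in short-term nontarget, 0.00704%, 0.00805% and 0.00970% in short-term knockdown, 0.0108%, 0.0131% and 0.0143% in long-term nontarget and 0.00391%, 0.00328% and 0.00345% in long-term knockdown libraries. They were thus lower in every knockdown library than in the nontarget libraries of the same time. Of 11 histone genes tested, 2 were lower in short-term and 10 in long-term knockdown, beside 4.71% and 15.8% of all genes. These mRNAs also follow the share of cells in S phase, and how much RNA without a tail entered each library was not tested.

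Nuclear genes that maintain and transcribe mitochondrial DNA were compared next. Of 17 tested, 0 were called in short-term knockdown (0 higher and 2 lower at an unadjusted p below 0.05 by edgeR, 0 by DESeq2), beside 5.62% higher and 4.71% lower of all genes. Their median log2 fold change was -0.02. In long-term knockdown 6 were higher and 0 lower, beside 13.7% and 15.8% of all genes, with a median of 0.31 against 0.00 over all genes. At an unadjusted p below 0.05 edgeR gave 9 higher and 1 lower, and DESeq2 called 4 higher and 0 lower. TFB2M, a transcription factor that melts the mitochondrial promoters with the polymerase, was at 59.8 to 65.9 CPM in long-term nontarget and 83.5 to 91.4 CPM in long-term knockdown libraries (0.47 ± 0.10, adjusted p = 0.0014, edgeR). TEFM, the elongation factor, was higher by 0.60 ± 0.21 (adjusted p = 0.040). TFB1M, a methyltransferase that modifies the small-subunit rRNA, had the largest rise (0.91 ± 0.26, adjusted p = 0.014, edgeR). MTERF1 (0.60 ± 0.16), which binds the DNA just after the rRNA genes, POLG2 (0.60 ± 0.21), a subunit of the DNA polymerase, and SSBP1 (0.42 ± 0.13), which coats single-stranded mitochondrial DNA, also rose. TFAM, which packages the DNA and activates transcription, had 0.24 ± 0.12 (adjusted p = 0.17, edgeR) and POLRMT, the RNA polymerase, 0.12 ± 0.22 (adjusted p = 0.75). Neither passed.

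Of 24 genes that process, modify, stabilise or degrade mitochondrial RNA, 1 was higher in short-term knockdown, beside 5.62% of all genes, and 9 were higher and 0 lower in long-term knockdown, beside 13.7% and 15.8%. Their median log2 fold change was 0.01 in short-term and 0.07 in long-term knockdown, near the 0.00 over all genes. At an unadjusted p below 0.05 edgeR gave 5 higher and 1 lower in short-term and 10 higher and 0 lower in long-term knockdown, and DESeq2 called 1 and 9 higher and 0 lower. LRPPRC, which binds mitochondrial mRNAs and keeps them stable and polyadenylated, was at 215 to 289 CPM in short-term nontarget and 330 to 352 CPM in short-term knockdown libraries (0.47 ± 0.11, adjusted p = 0.013, edgeR). It was at 192 to 231 CPM and 314 to 381 CPM in long-term cells (0.76 ± 0.11, adjusted p = 6.9e-05). The groups did not overlap at either time. Its partner SLIRP was at 0.08 ± 0.12 and -0.08 ± 0.12 and did not pass. The largest rises in long-term knockdown were those of FASTKD1 (0.84 ± 0.18, adjusted p = 0.0014, edgeR), of a family of mitochondrial RNA-binding proteins, and MRM3 (0.81 ± 0.13, adjusted p = 0.00013), which methylates the large-subunit rRNA.

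The nuclear pseudogenes with most counts are given beside their mitochondrial counterparts, with no test of the difference within a pair. MTATP6P1 was lower in short-term knockdown (-0.52 ± 0.13, adjusted p = 0.012, edgeR), where MT-ATP6 had -0.33 ± 0.13, and had 0.16 ± 0.13 in long-term knockdown, where MT-ATP6 had 0.29 ± 0.13. MTCO1P12, at chr1:631074-632616, was higher in long-term knockdown (0.78 ± 0.25, adjusted p = 0.026), beside 0.77 ± 0.13 for MT-CO1. MTND2P28 (-0.16 ± 0.19) and MTCO3P12 (0.64 ± 0.25) were not called there. The annotation has no nuclear transcript with a shared window for MT-RNR1 or MT-ND4, and MT-RNR2 shares its few windows with MTRNR2L12 and MTRNR2L8, of which MTRNR2L12 had 13 counts in all libraries.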

How the data were processed

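Poly(A) RNA of HK2 cells was sequenced on a MiSeq from TruSeq RNA v2 libraries. According to the methods and the submitters' processing notes, the authors trimmed reads with fastp, mapped them with STAR to GRCh38, counted them per gene with featureCounts and normalised with DESeq2; versions, strand setting and annotation release are not given in the sources used here. The deposited table holds raw counts per gene and, per the file headers, normalized values, which have the unit score (counts divided by a factor per library and rounded by the authors) and were not used. Members and gene lists were chosen with earlier results of these data known. IDs were matched to GENCODE 29, with the same version for all 37 genes.

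The raw counts went through edgeR 4.0.16 (R 4.3.3): filterByExpr (13959 genes, 99.8% of counts), TMM factors, and a robust quasi-likelihood fit of 12 libraries together, 1 coefficient for each group, and a prior count of 0.125. All p-values are two-sided, with Benjamini-Hochberg adjustment across the tested genes. CPM uses TMM-scaled library sizes, and the SE is the log2 fold change divided by the square root of F. Totals of 5825779 to 8991051 counts and a biological coefficient of variation of 12.0% set the precision. Shares and ratios are descriptions with no test, and intervals or floors cover counting error only.

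Named genes were all members, FLCN, 6 fixed nuclear genes (TFAM, POLRMT, TFB2M, TEFM, LRPPRC and SLIRP), the 3 largest called rises and falls of each nuclear list in the knockdown comparisons, pseudogenes with a mean of at least 50 counts and 4 RNAs without a tail; other genes were named after their values were seen. No 2 replicates agreed within sampling noise. Same-numbered libraries deviated together over 9363 genes, with correlations of 0.58, 0.25 and 0.72 in the long-term knockdown comparison and 0.51, 0.55 and 0.70 in long culture of knockdown cells. Fits with the number as a block are therefore given there beside the main fit. The numbers come from the sample titles, which do not say that they mark a shared day or batch. In the short-term comparison the correlations were -0.04, 0.22 and 0.05. Alternatives were other factors, filters, DESeq2 1.42.0, fits of 2 groups, the replicate block, and leaving out each library. The fit was tested on simulated data.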

Additional observations from a re-analysis of the deposited data

Results flagged for a closer look

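For 11 genes the effect of knockdown in long-term cells differed from that in short-term cells by a test of the difference itself (edgeR, adjusted over all genes tested). The difference, long-term minus short-term on the log2 scale, was 1.61 for MT-TP, 1.27 for MT-TC, 1.24 for MT-TN, 1.11 for MT-CO2, 0.96 for MT-RNR2, 0.88 for MT-CO1, 0.76 for MT-ATP8, 0.72 for MT-RNR1, 0.68 for MT-CO3, 0.65 for MT-ND5 and 0.61 for MT-ATP6. MT-TP was at -0.03 in short-term and 1.58 in long-term knockdown, and MT-CO2 at -0.41 and 0.70. For MT-RNR2, MT-TN and MT-TC both effects were above 0 and both passed the test. The mean CPM of the long-term nontarget libraries was the lowest of the 4 groups for all 11. Each of these libraries was also below all 9 others for MT-RNR1, MT-RNR2, MT-TC, MT-TN, MT-TP, MT-CO1 and MT-ND5. These libraries enter all 11 differences, and their part in them was not tested.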

How the results depend on the processing

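Over all alternatives, 1546 values of single genes kept their direction and side of the threshold, 67 passed it newly, 102 no longer passed and 64 turned sign. Of these, 9 were called before or after the turn, all with library sizes set by the 13 mitochondrial mRNAs, a choice made after the data were seen. These were MT-ND3 (-0.42), MT-ND4 (-0.069), MT-ND1 (-0.025), MT-CO3 (-0.024) and MT-ATP8 (-0.10) in long-term knockdown, and MT-ND5 (-0.053), MT-ND1 (-0.61), MT-ATP6 (-0.064) and MT-CO3 (-3.8e-05) in the interaction. The other 55 were called in neither fit, 21 of them under that scaling. These were MT-CO1 (0.036), MT-ND4 (0.094), MT-TP (0.12) and MT-ND4L (0.14) in short-term knockdown, MT-CYB (-0.14) and MT-ATP6 (-0.25) in long-term knockdown, MT-ND3 (0.34), MT-ATP6 (0.13), MT-CO3 (0.24), MT-TF (0.37), MT-TS1 (0.19) and MT-ATP8 (0.19) in long culture of nontarget cells, MT-ND2 (-0.14) and MT-TS1 (-0.091) in long culture of knockdown cells, and MT-ND6 (-0.23), MT-CYB (-0.070), MT-ND3 (-0.30), MT-ND4 (-0.16), MT-TY (-0.025), MT-TS1 (-0.28) and MT-ND4L (-0.14) in the interaction. That scaling shifts the median of all genes by -0.53 in long-term knockdown and -0.67 in the interaction, and by 0.15, 0.56 and -0.11 in short-term knockdown and in long culture of nontarget and of knockdown cells. It gave 6 higher and 2 lower in long-term knockdown, 1 higher and 6 lower in long culture of nontarget cells, 1 higher and 5 lower in long culture of knockdown cells, and 1 positive and 3 negative in the interaction, beside 2.24% and 45.6%, 51.6% and 1.25%, 3.03% and 12.7%, and 0.738% and 35.7% of all genes. MT-ND2 in long culture of knockdown cells also turned sign with the replicate block (-0.0064) and when genes averaging under 10 CPM were left out (-0.0028). The remaining 32 turns came from leaving out 1 library, with the ranges over those fits. These were MT-ND4 (-0.10 to 0.0076), MT-TP (-0.14 to 0.089) and MT-ND4L (-0.078 to 0.073) in short-term knockdown, MT-ND3 (-0.077 to 0.22) in long-term knockdown, MT-ND2 (-0.10 to 0.12) and MT-TF (-0.48 to 0.13) in long culture of nontarget cells, MT-CYB (-0.33 to 0.066), MT-ND2 (-0.20 to 0.14), MT-ND3 (-0.015 to 0.30), MT-ND4 (-0.28 to 0.028), MT-RNR2 (-0.36 to 0.057), MT-TS1 (-0.12 to 0.17), MT-RNR1 (-0.31 to 0.072) and MT-ND4L (-0.23 to 0.085) in long culture of knockdown cells, and MT-ND2 (-0.22 to 0.12) and MT-ND1 (-0.058 to 0.31) in the interaction.

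Genes lower in short-term knockdown numbered 1 without factors, 2 without a filter, 3 with the replicate block (MT-CO2, MT-ATP6 and MT-ATP8) and 1 in a fit of the 2 groups. Of all genes, 5.86%, 2.72%, 7.75% and 5.28% were lower in these fits, and the cause was not tested. Genes higher in long culture of knockdown cells numbered 4 without factors, 4 without a filter, 4 with the block and 1 in a fit of the 2 groups. Of all genes, 11.6%, 6.17%, 15.8% and 8.44% were higher in these fits. With the block, 1 was lower in long-term knockdown, beside 19.4% of all genes. In short-term cells and long culture of nontarget cells, same-numbered libraries did not all deviate together. The block gave 7 higher in short-term knockdown, with MT-RNR1 and MT-ND1 added, beside 9.14% of all genes. In long culture of nontarget cells it gave 17 lower, with MT-ATP6, MT-CO3 and MT-ATP8 added, beside 7.1%. The interaction, which also holds the long-term knockdown comparison, had 16 positive with the block, beside 8.6%. Over all groups, 10 of 12 libraries correlated best with their own number. Without 1 library, short-term knockdown gave 3 to 6 higher and 0 to 1 lower, long-term knockdown 11 to 18 higher and 0 to 1 lower, long culture of nontarget cells 9 to 14 lower, long culture of knockdown cells 1 to 4 higher and 3 to 6 lower, and the interaction 6 to 15 positive. The shares of all genes were, in the same order, 3.32% to 4.8% and 2.85% to 4.04%, 10.4% to 13.5% and 12.5% to 16%, 2.52% to 3.61%, 7.84% to 11.4% and 12% to 15.8%, and 3.54% to 6.01%. The interaction had 6 or 7 positive without short-term nontarget replicate 1 or 3, short-term knockdown replicate 2, long-term nontarget replicate 2 or 3 or long-term knockdown replicate 1. The 16 tRNAs with too few counts were not tested, and the cause of their low counts was not tested.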
